A study of Arabidopsis thaliana with 12 samples.

Results

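Whole seedlings of tic-2, which carries a mutation in TIME FOR COFFEE (TIC), taken just before dawn were set against whole seedlings of the wild type Col-0 taken just after dusk, by RNA sequencing. The comparison asks which dusk transcripts of the wild type the mutant reaches at dawn and which it does not. It uses 6 of the 12 libraries, the 3 of tic-2 at predawn (ZT 0, where ZT counts hours from lights-on) and the 3 of Col-0 at postdusk (ZT 12), and the 19274 of 25729 genes with an FPKM of at least 1 in at least 3 of the 12 columns. FPKM is a fragment count corrected for the length of the gene and the size of the library. The mutant is labelled tic-2 -/- and the control wild type. All seedlings were of the Col-0 ecotype per the labels, 10 days old, and grown at 22 °C on medium with 3% sucrose under conditions abbreviated LD. The 3 libraries of a group are biological replicates per the series design. The other 6 libraries, Col-0 at predawn and tic-2 at postdusk, lent their spread to the fit, and Col-0 at predawn is given below as a context level. Genotype and time of day differ together between the groups, so their shares in any difference cannot be told apart.

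The plant circadian clock is a loop of repressors. The related MYB factors CCA1 and LHY peak around dawn and repress evening genes, while PRR proteins follow each other through the day and repress CCA1 and LHY in turn. At dusk TOC1, GI and the evening complex of ELF3, ELF4 and LUX are active, and the evening complex represses growth factors such as PIF4 early in the night. TIC is a nuclear protein of this clock.

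The groups compared here are those whose labels conflict. In 6 of the 12 sample records the description names the column of another group: those titled for tic-2 at predawn name the Col-0 postdusk columns, and those titled for Col-0 at postdusk name the tic-2 predawn columns. Columns were taken by the genotype and ZT in their own names, and the other reading would turn the sign of every difference below. In the columns named for tic-2 at ZT 0, the dawn gene CCA1 stood at 183, 157 and 198 FPKM, and in those named for Col-0 at ZT 12 at 0.761, 0.712 and 0.769 FPKM, against 239, 281 and 258 FPKM in Col-0 at predawn. The columns named for ZT 12 in Col-0 were thus low in a dawn gene, which is the known state of the wild type at dusk. TIC itself stood at 63.9, 70.1 and 98.4 FPKM in tic-2 at predawn and 61.9, 57.5 and 63.1 FPKM in Col-0 at postdusk (log2 difference 0.32, adjusted p = 0.176). The labels do not state the kind of lesion, so this transcript does not check the genotype.

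Values were compared as log2(FPKM + 1), and the log2 differences below are the mean in tic-2 at predawn minus the mean in Col-0 at postdusk, with their standard errors (SE). A gene was called at a limma adjusted p under 0.05. Folds are ratios of mean FPKM. Of 19274 genes, 9459 (49.1%) were called: 3814 (19.8%) higher and 5645 (29.3%) lower in tic-2 at predawn, while 9815 (50.9%) were not called. With a log2 difference of at least 1, 932 genes (4.84%) were higher and 1402 (7.27%) lower. The median log2 difference of all genes was -0.08. The groups did not overlap in 11021 genes (57.2%). Of 14604 genes whose higher group averaged 5 FPKM or more, 10548 (72.2%) had a 95% interval of the difference wholly within 2-fold, and such genes are called within 2-fold below. The mean log2 profile of tic-2 at predawn correlated across genes at 0.912 with Col-0 at postdusk and at 0.957 with Col-0 at predawn, as a description, since genes are not independent replicates. Bulk values cannot tell fewer cells of a type from less RNA per cell.

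The listed evening clock genes fell into those far below their wild-type dusk level in tic-2 at predawn and those near or above it. Of 12 evening clock genes, 6 were lower, 2 higher and 4 not called (median log2 difference -0.37). Of all genes, 29.3% were lower and 19.8% higher. Within 2-fold were 7 of the 12, a smaller share than the 72.2% of all genes at 5 FPKM or more. The 7 included ZTL and LKP2, whose Col-0 postdusk means were 0.78 and 0.872 times those at predawn. Nearness to the dusk level thus does not mark a dusk state in ZTL and LKP2. CHE, also among the 7, was 1.43-fold higher in Col-0 at postdusk than at predawn. The promoters of several evening clock genes hold the evening element, AAAATATCT, the short DNA word bound by CCA1, LHY and their RVE relatives. It was searched on both strands in the 250 bases before to 50 after the annotated start. It was in 719 of 25452 promoters (2.82%) and in 577 of 19141 promoters of tested genes (3.01%), against 5 of 12 evening clock genes (41.7%) and 6 of the 8 evening clock output genes tested (75%). The related CCA1-binding site, AAAAATCT, was in 7.64% of all promoters. By their letters the evening element and this site cannot share bases. The 250 bases before the start are shown for 2 genes whose transcripts stayed far below the wild-type dusk level, GRP7 and FKF1, and for 2 near or above it, CCL and BOA, with the evening element in capitals (AGATATTTT where it lies on the other strand).
GRP7: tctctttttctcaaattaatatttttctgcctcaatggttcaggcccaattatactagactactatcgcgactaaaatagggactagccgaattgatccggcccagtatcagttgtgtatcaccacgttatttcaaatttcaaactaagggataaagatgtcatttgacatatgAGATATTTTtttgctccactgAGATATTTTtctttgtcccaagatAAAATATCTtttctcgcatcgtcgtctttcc
FKF1: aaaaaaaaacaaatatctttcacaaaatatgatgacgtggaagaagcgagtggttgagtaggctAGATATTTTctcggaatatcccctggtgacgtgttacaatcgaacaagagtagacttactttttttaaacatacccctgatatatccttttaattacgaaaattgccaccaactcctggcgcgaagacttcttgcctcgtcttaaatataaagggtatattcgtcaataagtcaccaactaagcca
CCL: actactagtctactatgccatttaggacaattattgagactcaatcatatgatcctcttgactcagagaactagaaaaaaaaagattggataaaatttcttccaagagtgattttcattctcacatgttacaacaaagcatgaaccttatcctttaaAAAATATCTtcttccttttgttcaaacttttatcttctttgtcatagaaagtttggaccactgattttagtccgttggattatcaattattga
BOA: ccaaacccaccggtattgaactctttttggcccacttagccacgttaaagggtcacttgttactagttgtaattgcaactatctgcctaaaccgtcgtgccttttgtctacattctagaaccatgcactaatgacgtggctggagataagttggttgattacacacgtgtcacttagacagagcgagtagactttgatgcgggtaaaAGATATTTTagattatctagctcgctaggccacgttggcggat
They lie at chr2:9266558-9266807 on the minus strand (GRP7), chr1:25508389-25508638 on the plus strand (FKF1), chr3:9827432-9827681 on the plus strand (CCL) and chr5:24003638-24003887 on the plus strand (BOA) of TAIR10.1, read 5′ to 3′ along each gene from the RefSeq genome. GRP7 has 3 matches, at 76, 55 and 31 bases before the start. FKF1 has 1 here, at 186 bases before the start, and a second that begins at the start itself, outside the stretch shown. CCL has 1 at 93 bases and BOA 1 at 43 bases before the start. In the evening lists, genes with the word thus stood at unlike levels. TOC1, FKF1, GRP7, COR27 and AT4G33980 were at under 50% of the wild-type dusk level. PRR5, LUX, BOA, GRP8, CAT3 and CCL were within 2-fold. Among these, LUX and CCL were still called lower (log2 difference -0.42 and -0.58, adjusted p = 0.00976 and 0.00373), and BOA and CAT3 higher. In the morning clock list, PRR9 and RVE7 hold the word and were 19.7-fold and 6.12-fold higher. A match is a description of the sequence, and its part in these levels was not tested.

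Among the partners of the evening complex, ELF4 stayed far from dusk. ELF4, the small subunit of the complex (chr2:16734294-16734953, minus strand), had 5.72, 5.25 and 3.74 FPKM in tic-2 at predawn, against 143, 174 and 169 FPKM in Col-0 at postdusk. It was 33.1-fold lower (log2 difference -4.80 ± 0.21 SE, adjusted p = 1.63e-08), and its 3 tic-2 values lay above the Col-0 predawn mean of 1.05 FPKM. ELF3, the scaffold of the complex, had 38.6, 36.9 and 42.4 FPKM in tic-2 at predawn and 38, 35.5 and 39.2 FPKM in Col-0 at postdusk. These values overlapped, and the interval of the log2 difference ran between -0.14 and 0.26, while Col-0 at predawn averaged 14 FPKM. LUX, the DNA-binding subunit, had 18.7, 20 and 18.1 FPKM in tic-2 at predawn against 27.1, 21.2 and 29.4 FPKM in Col-0 at postdusk (log2 difference -0.42 ± 0.12 SE, adjusted p = 0.00976). It was called lower but within 2-fold, and the call was lost without library C of Col-0 at postdusk (adjusted p = 0.0502). BOA, the close relative of LUX, was higher, with 9.63, 10.3 and 11.5 FPKM in tic-2 at predawn against 7.20, 6.46 and 6.27 FPKM in Col-0 at postdusk (log2 difference 0.58 ± 0.10 SE, adjusted p = 0.000634).

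GI and FKF1, which together time flowering and degrade repressors in the afternoon, were both far below dusk. FKF1, a blue-light sensing F-box protein, had 2.31, 2.29 and 2.18 FPKM in tic-2 at predawn and 29.1, 28.4 and 35.9 FPKM in Col-0 at postdusk, a 13.8-fold lower level (log2 difference -3.29 ± 0.13 SE, adjusted p = 7.63e-09). GI, its partner, had 5.48, 5.52 and 4.41 FPKM in tic-2 at predawn against 24.0, 23.4 and 31.5 FPKM in Col-0 at postdusk (log2 difference -2.15 ± 0.14 SE, adjusted p = 3.55e-07). In Col-0 at predawn the means were 0.039 FPKM for FKF1 and 0.134 FPKM for GI, so the mutant at dawn stood between the wild type at its dusk and at its dawn in both. The F-box relatives ZTL and LKP2 were not called and were within 2-fold, with ZTL between 21.1 and 23.9 FPKM in tic-2 at predawn and between 23.4 and 25.5 FPKM in Col-0 at postdusk. In Col-0 at predawn ZTL averaged 31.1 FPKM and LKP2 9.48 FPKM, so neither rose at dusk in the wild type.

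Within the PRR family, which acts in sequence through the day, the later members stood low and the earlier ones high. TOC1 had 42.0, 42.5 and 42.0 FPKM in tic-2 at predawn against 88.7, 92.6 and 84.2 FPKM in Col-0 at postdusk, or 47.7% of the dusk level (log2 difference -1.05 ± 0.12 SE, adjusted p = 1.95e-05). PRR3 was at 37.5% of it (log2 difference -1.34 ± 0.10 SE, adjusted p = 9.32e-07). PRR5 had 17.1, 14.3 and 15.6 FPKM in tic-2 at predawn against 20.8, 19.3 and 18.9 FPKM in Col-0 at postdusk. It missed the threshold (adjusted p = 0.115) with an interval between -0.65 and 0.03, though its groups did not overlap, and it was called lower in a fit of only the 6 libraries (adjusted p = 0.0343) and with array weights (adjusted p = 0.00333). PRR7, a daytime member, was higher, with 45.9, 41.8 and 52.9 FPKM in tic-2 at predawn and 18.4, 17.1 and 23.8 FPKM in Col-0 at postdusk (log2 difference 1.21 ± 0.15 SE, adjusted p = 4.28e-05). PRR9, the morning member, had 10.1, 6.78 and 8.90 FPKM in tic-2 at predawn, against 0.331, 0.488 and 0.489 FPKM in Col-0 at postdusk (log2 difference 2.72 ± 0.15 SE, adjusted p = 9.39e-08). Both were near their floor in Col-0 at predawn, with means of 1.05 FPKM for PRR7 and 0.23 FPKM for PRR9, so the tic-2 predawn level exceeded both wild-type times. CHE, a TCP factor that binds the CCA1 promoter, was called higher (log2 difference 0.59 ± 0.18 SE, adjusted p = 0.0152), a call lost without library B of Col-0 at postdusk (adjusted p = 0.0654) or library C of tic-2 at predawn (adjusted p = 0.0505).

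The morning clock genes were high in tic-2 at predawn: 12 of 14 were higher, 0 lower and 2 not called, with a median log2 difference of 3.86 and 1 within 2-fold. Of all genes, 19.8% were called higher, and 72.2% of those at 5 FPKM or more were within 2-fold. LHY had 155, 151 and 167 FPKM in tic-2 at predawn, against 0.517, 0.465 and 0.466 FPKM in Col-0 at postdusk (log2 difference 6.74 ± 0.08 SE, adjusted p = 1.79e-13), the largest rise of the genes named by the rule. RVE8, a MYB activator of evening genes, had 69.3, 63.4 and 69.8 FPKM in tic-2 at predawn against 1.47, 1.51 and 2.25 FPKM in Col-0 at postdusk, 38.8-fold higher. Its coactivators LNK2, LNK3 and LNK4 were 60.5-fold, 79.9-fold and 40.4-fold higher, and RVE1, a MYB factor of auxin timing, 45.5-fold. LHY in Col-0 at predawn stood at 374, 417 and 411 FPKM and RVE8 at 141, 159 and 149 FPKM, above every tic-2 predawn library. LNK1 was not called (adjusted p = 0.0695) but passed in 4 of the 16 alternatives, and the MYB gene AT5G52660 was within 2-fold. The 12 largest rises by the naming rule were LHY, CCA1, LHCB1.1, ASN1, LHCB1.4, LNK2, SESA3, LNK3, RVE1, LNK4, RVE8 and LHCB2.3, so 7 of them were morning clock genes. A G-box, CACGTG, was in 10 of the 14 morning clock windows (71.4%), in 2 of 12 evening clock windows (16.7%) and in 8.08% of all promoters.

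**Figure D1:**
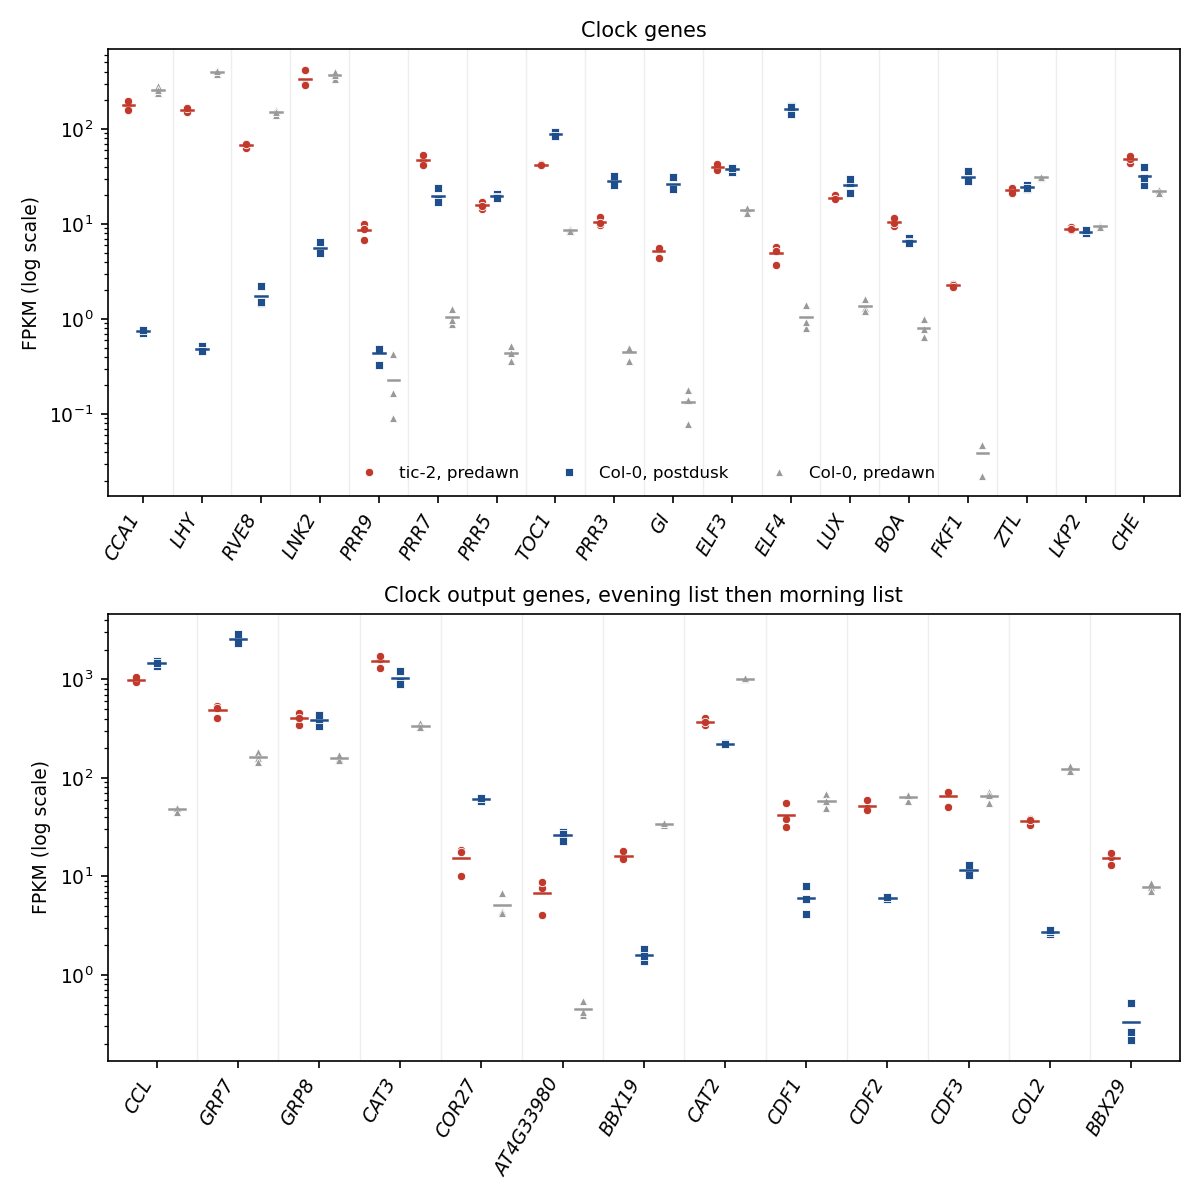
FPKM on a log scale of clock genes (top) and clock output genes (bottom) in each library, with red circles for tic-2 at predawn, blue squares for Col-0 at postdusk and grey triangles for Col-0 at predawn; short lines are the means of 3 libraries. CCA1 and LHY are high in tic-2 at predawn and under 1 FPKM in Col-0 at postdusk, ELF4 and FKF1 are lower in tic-2 at predawn than in Col-0 at postdusk, and ELF3 and GRP8 have overlapping groups.

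Listed evening output genes likewise ran from far below their wild-type dusk level to near or above it. Of 10 listed, 8 were tested, of which 4 were lower, 2 higher and 2 not called, and 3 were within 2-fold (median log2 difference -0.37). Of all genes, 29.3% were lower and 19.8% higher, and 72.2% of those at 5 FPKM or more were within 2-fold. The 8 include BBX19 and AT2G34140, which did not rise at dusk in Col-0 (postdusk over predawn 0.0467 and 0.794). GRP7, an RNA-binding protein that represses its own and GRP8 transcript, had 531, 513 and 409 FPKM in tic-2 at predawn against 2472, 2360.4 and 2865 FPKM in Col-0 at postdusk (log2 difference -2.41 ± 0.18 SE, adjusted p = 6.91e-07). GRP8, its close relative, had 341, 455 and 409 FPKM in tic-2 at predawn against 336, 394 and 438 FPKM in Col-0 at postdusk, overlapping, with an interval between -0.28 and 0.36. COR27 and AT4G33980 were lower at 25.5% and 26.1% of the dusk level. CAT3, a catalase of the evening, was higher, with 1296, 1606 and 1734 FPKM in tic-2 at predawn and 937, 906 and 1222 FPKM in Col-0 at postdusk (log2 difference 0.60 ± 0.14 SE, adjusted p = 0.00362). BBX19, a B-box protein, was 10.1-fold higher in tic-2 at predawn than in Col-0 at postdusk (1.85, 1.38 and 1.57 FPKM), and it averaged 34.2 FPKM in Col-0 at predawn, so in the wild type it was not an evening gene here. CO and FT, the flowering genes, were below the filter. FT was listed at 0 in all 3 libraries of tic-2 at predawn and all 3 of Col-0 at predawn, and at 0.204 to 0.467 FPKM in Col-0 at postdusk. All 9 tested genes of the morning output list were higher (median log2 difference 2.38). They were led by BBX29, COL2 and CDF2, the last a repressor of CO transcription, with CDF2 at 49.1, 60 and 46.8 FPKM in tic-2 at predawn against 6.16, 5.96 and 6.19 FPKM in Col-0 at postdusk. The weakest were BBX30 and BBX31, with means of 1.94 and 1.04 FPKM in tic-2 at predawn. BBX31 lost its call in 6 of the 16 alternatives (adjusted p up to 0.128), and BBX30 with array weights (adjusted p = 0.0602).

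The 15 genes with the largest rise in Col-0 at postdusk over Col-0 at predawn, among those of at least 20 FPKM at postdusk, show the range of the match. They were picked on the same postdusk libraries, so their values are a description with no test. CCL, a clock output gene, was at 67.1% of the Col-0 postdusk level, with 956, 945 and 1045 FPKM in tic-2 at predawn and 1552, 1362 and 1479 FPKM in Col-0 at postdusk. AT3G62550, annotated as an adenine nucleotide alpha hydrolase-like protein, was at 63.3%, with 162, 148 and 147 FPKM in tic-2 at predawn and 259, 249 and 215 FPKM in Col-0 at postdusk. MEE14 was at 88.2%, with 137, 165 and 154 FPKM in tic-2 at predawn and 202, 178 and 137 FPKM in Col-0 at postdusk. In Col-0 at predawn these genes had 45.3 to 50.4 FPKM, 7.87 to 9.56 FPKM and 6.41 to 8.23 FPKM. The other 12 were at under 25% of the postdusk level. AT4G16146, AMY3 and GI were at 20.4%, 23.0% and 19.5%, and ELF4, AT5G23240, AOC2, AT1G07135, AT1G07050, FKF1, WRKY40, AT1G72920 and NUDT24 between 1.44% and 7.27%. AT5G23240, a DnaJ-type protein, had 3.51, 6.77 and 8.15 FPKM in tic-2 at predawn against 173, 205 and 247 FPKM in Col-0 at postdusk. The evening element was in 4 of these 15 windows: CCL, MEE14, FKF1 and AT4G16146.

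The 12 largest falls by the naming rule were VSP2, AT1G72910, AT5G23240, DFR, ELF4, WRKY70, AT1G72920, DIC2, LDOX, WRKY40, AT1G07135 and NUDT24. Several differed widely between the Col-0 postdusk libraries. AT1G72910, a TIR-domain protein of the immune receptor class, had 0.215, 0.283 and 0.511 FPKM in tic-2 at predawn against 83.7, 16.7 and 85.4 FPKM in Col-0 at postdusk (adjusted p = 2.72e-06). WRKY70, a transcription factor of salicylate defence, had 1.56, 2.39 and 1.34 FPKM in tic-2 at predawn against 135, 36.8 and 75.4 FPKM in Col-0 at postdusk. WRKY40 had 1.73, 2.88 and 3.00 FPKM in tic-2 at predawn and 124, 39.4 and 72.5 FPKM in Col-0 at postdusk. Library B of Col-0 at postdusk was the lowest of its group in each, and the groups did not overlap. Without that library AT1G72910 had a log2 difference of -6.01, against -5.25 with it.

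**Figure D2:**
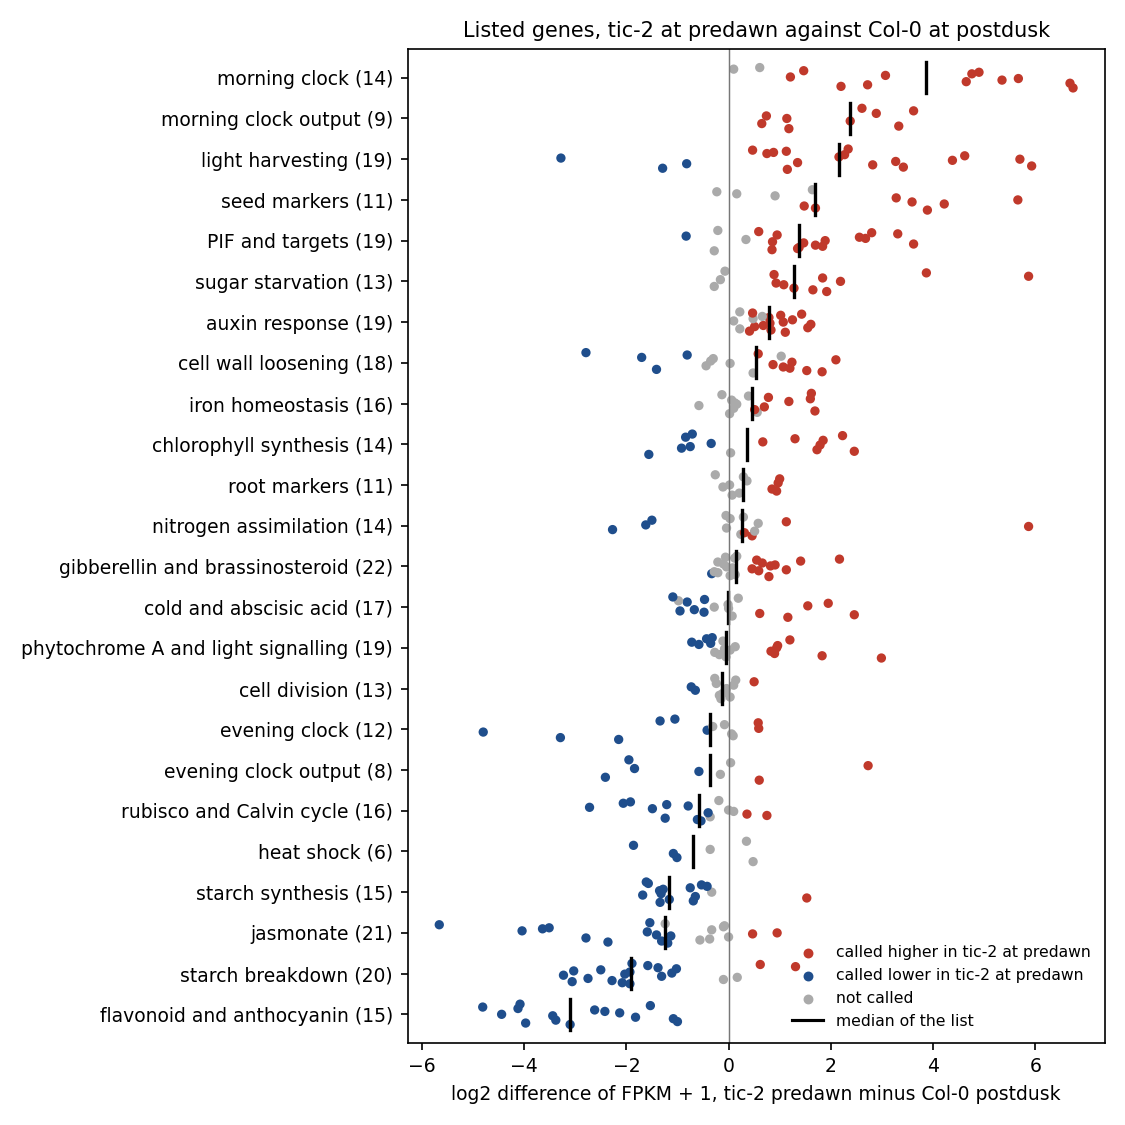
Log2 difference of FPKM + 1 for each tested member of the 24 gene lists, tic-2 at predawn minus Col-0 at postdusk, with red points called higher in tic-2 at predawn, blue points called lower and grey points not called; black bars are list medians and numbers in parentheses are tested members. List medians run between 3.86 for the morning clock and -3.10 for the flavonoid list.

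Starch genes stood mostly below the wild-type dusk level. Of 20 starch breakdown genes, 16 were lower, 2 higher and 2 not called (median log2 difference -1.91), and of 15 starch synthesis genes, 13 were lower, 1 higher and 1 not called (median -1.16). Among all genes tested, 29.3% were called lower and 19.8% higher. PHS2, the cytosolic glucan phosphorylase, had 30.5, 27.9 and 23.9 FPKM in tic-2 at predawn against 232, 262 and 303 FPKM in Col-0 at postdusk, 9.68-fold lower (log2 difference -3.23 ± 0.12 SE, adjusted p = 5.47e-09). LSF2, a glucan phosphatase, had 10.9, 8.58 and 8.48 FPKM in tic-2 at predawn against 67.1, 68.2 and 68.5 FPKM in Col-0 at postdusk, 7.29-fold lower (adjusted p = 2.72e-09). BAM6, a beta-amylase gene, was under 0.4 FPKM in tic-2 at predawn and between 8.47 and 11.3 FPKM in Col-0 at postdusk. SEX1, the glucan water dikinase that opens the granule surface, was at 26.0% of the dusk level, DPE2, which handles exported maltose, at 19.9%, and BAM3, the main leaf beta-amylase, at 18.1%. BAM3 had 19.7, 32.4 and 44.3 FPKM in tic-2 at predawn, against 167, 193 and 174 FPKM in Col-0 at postdusk and a mean of 239 FPKM in Col-0 at predawn, and so lay below both wild-type times. The 2 that were higher were BAM9 (2.59-fold) and BAM4, and BAM1 and LSF1 were not called and were within 2-fold. In synthesis, SBE2.1, a branching enzyme, PGM, the plastid phosphoglucomutase, and APS1, the small subunit of ADP-glucose pyrophosphorylase, were at 30.8%, 32.3% and 33.3% of the dusk level. GBSS1, which makes amylose, was the 1 that was higher, with 117, 132 and 135 FPKM in tic-2 at predawn against 28.6, 41.4 and 69.2 FPKM in Col-0 at postdusk.

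**Figure D3:**
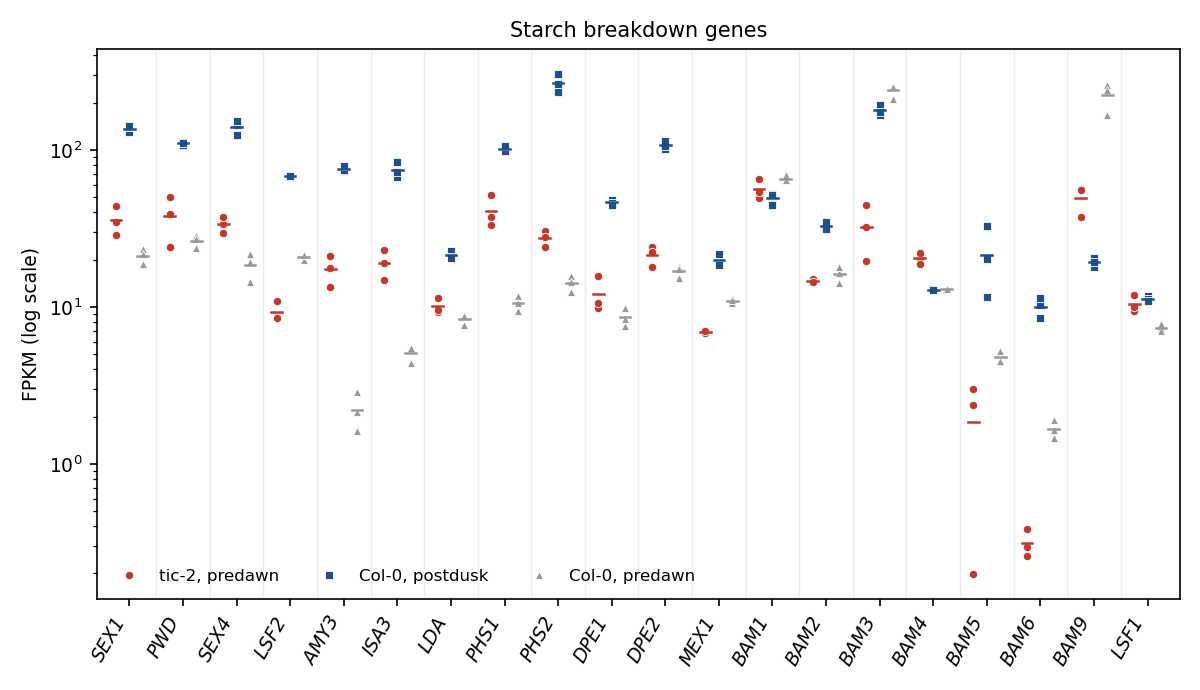
FPKM on a log scale of the 20 starch breakdown genes in each library, with red circles for tic-2 at predawn, blue squares for Col-0 at postdusk and grey triangles for Col-0 at predawn; short lines are the means of 3 libraries. Of these genes BAM6, BAM5 and PHS2 have the widest gaps in fold, all lower in tic-2 at predawn, and BAM9 and BAM4 are higher in tic-2 at predawn.

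Genes of sugar starvation were higher. Of 13 tested, 10 were higher, 0 lower and 3 not called (median log2 difference 1.28), beside 19.8% of all genes called higher. ASN1, the asparagine synthetase induced in darkness and low sugar, had 289.7, 387 and 399 FPKM in tic-2 at predawn against 5.65, 6.68 and 3.39 FPKM in Col-0 at postdusk (log2 difference 5.87 ± 0.35 SE, adjusted p = 1.52e-07). It averaged 48.8 FPKM in Col-0 at predawn, so tic-2 at predawn exceeded both wild-type times. DIN4, a subunit of branched-chain keto acid dehydrogenase, was 3.85-fold and TPS10, a trehalose phosphate synthase family member, 2.54-fold higher. DIN1 varied between 184 and 685 FPKM in tic-2 at predawn and between 13.6 and 34.9 FPKM in Col-0 at postdusk, without overlap.

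Photosynthesis genes split by function. Of 19 light-harvesting genes, 16 were higher and 3 lower (median log2 difference 2.16). Among all genes tested, 19.8% were called higher and 29.3% lower. LHCB1.1, a protein of the photosystem II antenna, had 4946, 3616 and 3823 FPKM in tic-2 at predawn against 76.1, 58.0 and 65.6 FPKM in Col-0 at postdusk (log2 difference 5.93 ± 0.13 SE, adjusted p = 1.04e-10), and LHCB2.1 was 21.0-fold higher. In Col-0 at predawn LHCB1.1 averaged 4226 FPKM and LHCB2.1 2197 FPKM, against tic-2 predawn means of 4128 and 1549 FPKM. LHCB1.4 went the other way, with means of 553 FPKM in Col-0 at predawn and 1821 FPKM in tic-2 at predawn. Copies of LHCB1 and LHCB2 are near-identical and uncertain as single genes. The 3 that were lower were LHCA5, LHCA6 and LHCB4.3, the last at 6, 4.99 and 5.08 FPKM in tic-2 at predawn and 39.7, 67.3 and 83.1 FPKM in Col-0 at postdusk. Of 16 rubisco and Calvin cycle genes, by contrast, 10 were lower, 2 higher and 4 not called (median -0.57). Within 2-fold were 8 of the 16, a smaller share than the 72.2% of all genes at 5 FPKM or more. CP12-2, which binds Calvin cycle enzymes in the dark, had 114, 123 and 178 FPKM in tic-2 at predawn against 859.7, 881 and 959 FPKM in Col-0 at postdusk, and SBPASE was at 35.7% of the dusk level. Of 14 chlorophyll synthesis genes, 7 were higher and 6 lower. HEMA1, the entry enzyme, and CRD1, the cyclase of the chlorophyll branch, were higher. CAO, the oxygenase that makes chlorophyll b, had 142, 119.7 and 112 FPKM in tic-2 at predawn against 24.7, 17.5 and 23.6 FPKM in Col-0 at postdusk (log2 difference 2.46 ± 0.14 SE, adjusted p = 8.94e-08). In Col-0 at predawn HEMA1, CRD1 and CAO averaged 312, 819 and 211 FPKM, above their tic-2 predawn means of 222, 739 and 125 FPKM. PORC, a protochlorophyllide reductase, was lower and had 56.6, 45.5 and 40.5 FPKM in tic-2 at predawn against 133, 135 and 157 FPKM in Col-0 at postdusk. Of 14 nitrogen assimilation genes, 4 were higher, 3 lower and 7 not called, a share of calls near the 49.1% of all genes. The 3 lower ones were NIR1, the plastid nitrite reductase, at 21.2%, GLN2, the plastid glutamine synthetase, at 35.4%, and GLU1, a glutamate synthase, at 33.3% of the dusk level.

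PHYA and 15 of 19 genes of PIF factors and their targets were higher in tic-2 at predawn than in Col-0 at postdusk, while the wider light signalling list was mixed. PHYA, the far-red light receptor (chr1:3095160-3100819, minus strand), had 86.5, 90.8 and 66.5 FPKM in tic-2 at predawn against 21.9, 22.6 and 21.4 FPKM in Col-0 at postdusk, 3.70-fold higher (log2 difference 1.83 ± 0.12 SE, adjusted p = 2.32e-07). Of 19 genes in the phytochrome A and light list, 7 were higher, 5 lower and 7 not called (median -0.05). Within 2-fold were 11 of the 19, a smaller share than the 72.2% of all genes at 5 FPKM or more. The rises included CRY1, a blue light receptor, HFR1, a bHLH factor (9.11-fold), and FHY1 and FHL, which carry PHYA into the nucleus. PIF4, a growth-promoting bHLH factor, had 86.4, 78.3 and 74.4 FPKM in tic-2 at predawn and 25.1, 16.6 and 23.8 FPKM in Col-0 at postdusk (log2 difference 1.84 ± 0.18 SE, adjusted p = 6.83e-06), with a mean of 6.42 FPKM in Col-0 at predawn. PIF5 was 3.78-fold higher (adjusted p = 2.57e-06) and PIF1 2.75-fold. PIF3 and PIF7 were not called (adjusted p = 0.0539 and 0.357) and were within 2-fold. Of 19 PIF and target genes, 15 were higher, 1 lower and 3 not called (median 1.38). Among all genes tested, 19.8% were called higher and 29.3% lower. PIL1, an early PIF target, had 18.3, 28.1 and 32.3 FPKM in tic-2 at predawn against 0.997, 1.21 and 1.3 FPKM in Col-0 at postdusk. IAA29, another target, had 27.7, 23.8 and 26.0 FPKM in tic-2 at predawn against 2.01, 1.24 and 1.94 FPKM in Col-0 at postdusk. The 1 lower gene was HAT1, at 55.9%.

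Hormone and growth lists were mixed. Of all genes tested, 19.8% were called higher and 29.3% lower. Of 19 auxin response genes, 14 were higher and 5 not called (median 0.79). IAA7, an auxin repressor, and PIN3, an auxin exporter, led by p: PIN3 had 136, 136 and 137 FPKM in tic-2 at predawn and 54.1, 42.9 and 41.3 FPKM in Col-0 at postdusk. The SAUR19 to SAUR24 genes in that list are close copies and uncertain as single genes. Of 22 gibberellin and brassinosteroid genes, 10 were higher, 1 lower and 11 not called, a share of calls near the 49.1% of all genes. The rises included the brassinosteroid synthesis genes CPD, ROT3 and BR6OX2, with CPD at 311, 343 and 323 FPKM in tic-2 at predawn against 77.9, 66.2 and 70.3 FPKM in Col-0 at postdusk. Of 18 cell wall loosening genes, 8 were higher, 4 lower and 6 not called. The expansin EXPA8 was 4.37-fold higher, and EXPA10 was at 36.9% of the dusk level.

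**Figure D4:**
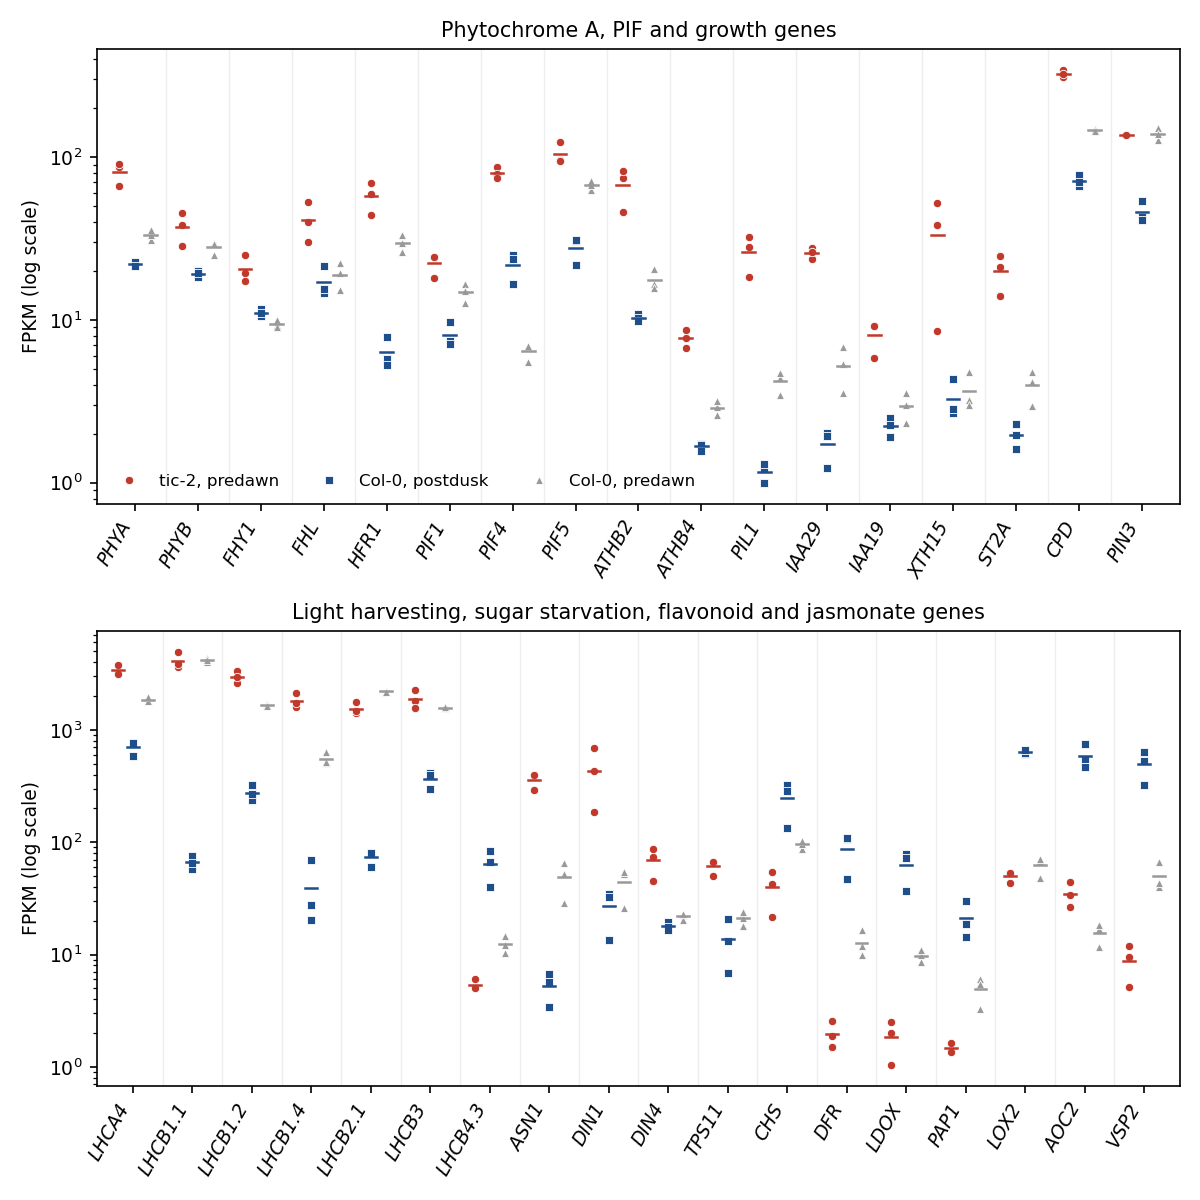
FPKM on a log scale of light signalling and growth genes (top) and of light-harvesting, sugar starvation, flavonoid and jasmonate genes (bottom) in each library, with red circles for tic-2 at predawn, blue squares for Col-0 at postdusk and grey triangles for Col-0 at predawn; short lines are the means of 3 libraries. PHYA, PIF4 and ASN1 are higher in tic-2 at predawn, and DFR, LOX2 and VSP2 lower.

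All 15 tested flavonoid and anthocyanin genes and 12 of 21 jasmonate genes were lower in tic-2 at predawn than in Col-0 at postdusk. Among all genes tested, 29.3% were called lower and 19.8% higher. The flavonoid list had a median log2 difference of -3.10. DFR, an enzyme of anthocyanin synthesis, had 1.89, 1.49 and 2.55 FPKM in tic-2 at predawn against 47.3, 106 and 109 FPKM in Col-0 at postdusk (log2 difference -4.81 ± 0.32 SE, adjusted p = 3.61e-07). PAP1, a MYB activator of the pathway, had 1.38, 1.36 and 1.64 FPKM in tic-2 at predawn against 14.3, 18.8 and 29.7 FPKM in Col-0 at postdusk. CHS, the entry enzyme, was at 16.0% of the dusk level and averaged 95.6 FPKM in Col-0 at predawn, so tic-2 at predawn, with 21.4, 42.7 and 54.5 FPKM, was below both wild-type means. Of 21 jasmonate genes, 12 were lower, 2 higher and 7 not called (median -1.24). LOX2, which starts jasmonate synthesis in the plastid, had 43.6, 53.6 and 52.9 FPKM in tic-2 at predawn against 606, 620.1 and 668 FPKM in Col-0 at postdusk. AOC2, a cyclase of the same pathway, was 16.9-fold lower. VSP2, a jasmonate-induced storage protein, had 11.8, 9.50 and 5.15 FPKM in tic-2 at predawn against 321, 633 and 524 FPKM in Col-0 at postdusk, 55.8-fold lower. Its mean in Col-0 at predawn was 50.2 FPKM, so tic-2 at predawn was below both wild-type means.

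Stress, iron and division genes showed smaller or mixed differences. The shares called below stand beside 19.8% of all genes called higher and 29.3% lower, or 49.1% in either direction. Of 17 cold and abscisic acid genes, 5 were higher, 6 lower and 6 not called (median -0.01). COR413IM1, a chloroplast membrane protein of cold response, was 5.54-fold higher, with 290.2, 272 and 277 FPKM in tic-2 at predawn and 57.6, 51.8 and 42.3 FPKM in Col-0 at postdusk, whereas COR15B was at 51.4%. Of 16 iron genes, 7 were higher and 9 not called. The higher ones included NAS2, a nicotianamine synthase, and FRO3, a ferric reductase (3.49-fold). Of 6 heat shock genes, 3 were lower and 3 not called. HSP90.1, a chaperone, was at 23.0% of the dusk level. HSP70 (AT3G12580) and HSFA2 lost their calls in 3 and 4 of the 16 alternatives, with adjusted p up to 0.0708 without library C of Col-0 at postdusk for HSP70 and up to 0.0792 without library A for HSFA2. Of 13 cell division genes, 10 were not called and 11 were within 2-fold, with the ribonucleotide reductase gene TSO2 at 58.9%.

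Several seed markers and fewer root markers were higher in tic-2 at predawn, and their part in the results above was not tested. Of 11 tested seed genes, 7 were higher and 4 not called (median 1.70), beside 19.8% of all genes called higher. The summed level of the 13 listed was between 308 and 801 FPKM in tic-2 at predawn and between 133 and 320.3 FPKM in Col-0 at postdusk. SESA3, a seed storage albumin, had 143, 31.8 and 58.8 FPKM in tic-2 at predawn against 0.461, 0.324 and 0.130 FPKM in Col-0 at postdusk, while the embryo regulator LEC1 was listed at 0 in all 3 Col-0 postdusk libraries and 2 of the 3 tic-2 predawn libraries. Albumin copies are uncertain as single genes. Of 11 tested root genes, 4 were higher and 7 not called. Of all genes, 19.8% were called higher and 49.1% in either direction. The summed level of the 13 listed was between 77.0 and 102 FPKM in tic-2 at predawn and between 49.6 and 86.1 FPKM in Col-0 at postdusk. CASP1 and CASP2, of the root endodermis, lost their calls in 6 and 4 of the 16 alternatives, with adjusted p up to 0.125 without library C of Col-0 at postdusk for CASP1 and up to 0.0805 without library A for CASP2. Library B of Col-0 at postdusk was the highest of its group in both, and the groups compared overlapped in each.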

How the data were processed

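Total RNA of whole seedlings was sequenced with a directional kit, per the labels' protocols. The authors deposited 1 table of FPKM values; TopHat2, TopHat and edgeR on TAIR10 appear in the submitters' processing notes without versions or roles. The read counter is not given in the sources used here, nor is its use of strand. Names and coordinates come from RefSeq TAIR10.1 (25453 of 25729 identifiers matched). FPKM steps gave whole reads within 0.05 reads for 99.2% to 99.5% of values per library, at 19255005 to 21750387 reads.

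Values were tested as log2(FPKM + 1) with limma 3.58.1 (R 4.3.3) in 1 fit of all 12 libraries with a mean-variance trend and Benjamini-Hochberg adjustment over 19274 genes (FPKM of at least 1 in at least 3 columns). The script was tested on simulated data. Members, the 24 gene lists and tests were chosen with earlier results of these data known, so no list is independent evidence of its direction. Genes named were TIC, PHYA, PIF4, PIF5, the clock lists, the 12 largest rises and 12 largest falls without overlap at a mean of at least 5 FPKM, up to 3 called members per list by p, and the 15 largest dusk rises in Col-0. Other list members are given as examples and were picked after their values were seen. The alternatives were other filters, pseudocounts, scalings, weights, a fit of only the 6 libraries, a replicate block and each library left out. COL1, LHCB1.5, MYC2, F3H and HSP17.4 were not analysed here.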

Additional observations from a re-analysis of the deposited data

How the results depend on the processing

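Across the 16 alternatives run, the counts of calls and of genes within 2-fold stayed within 1.5 times those reported. Median-of-ratios rescaling gave 4637 higher and 4634 lower genes and quantile normalization 4629 and 4631, so the higher share of calls was 50% under rescaling against 40.3% as reported, and the median log2 difference of all genes was 0.01 against -0.08. Array weights gave 5042 higher and 6847 lower genes. Leaving out each library in turn gave 7957 to 9200 called genes, with 3163 to 3780 higher, 4794 to 5420 lower, 10113 to 10506 within 2-fold, and a higher share of 39.4% to 42.8%. Of 100 called genes named by the rule, 6 lost the call under at least 1 alternative (HSP70, HSFA2, CASP1, CASP2, LUX and CHE), and LNK1 and PRR5 gained one. None of the called ones changed sign, while ELF3, ZTL, GRP8 and AT2G34140, none of them called, changed sign under 1 or 2. Other list members, such as BBX30 and BBX31, were outside this count.

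The letters of the columns were not used to pair the libraries. Deviations of same-letter libraries of the 2 groups correlated at 0.07, 0.02 and 0.21, and those of different letters at -0.24 to 0.13. So few values cannot decide whether the letters pair the libraries. A replicate block by letter gave 3730 higher and 5483 lower genes, and 10521 within 2-fold. The counting limit is 1 read, worth 0.046 to 0.0519 FPKM in a gene with 1 kb of exons.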
